A study of Mus musculus with 9 samples.

Results

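Autophagy machinery and receptor genes were followed in B.END3 cells, a mouse cell line labelled as brain microvessel endothelium, after photodynamic therapy (PDT) with the photosensitizer porfimer sodium. The genes were chosen by name: all listed genes whose symbol starts with Atg and a digit, plus 21 named partners (Map1lc3a, Map1lc3b, Gabarap, Gabarapl1, Gabarapl2, Becn1, Ulk1, Ulk2, Wipi1, Wipi2, Pik3c3, Pik3r4, Uvrag, Nbr1, Optn, Tax1bp1, Calcoco1, Rb1cc1, Bnip3, Bnip3l and Ambra1). This gave 40 of the 54532 listed genes. The strain of origin is given as C57BL/6, which was not checked here. The study's methods call the cells rat, whereas its introduction calls them mouse. The 9 RNA sequencing libraries formed 3 groups of 3: untreated control cells (Ctrl), and cells irradiated at 10 J/cm2 (Ep1) or 20 J/cm2 (Ep2). Ep1 and Ep2 cells took up porfimer sodium at 300 μg/mL for 90 min before a 635 nm laser at 100 mW/cm2. No group had drug alone or light alone, so the 2 agents cannot be told apart here, and the time from light to harvest is not given in the sources used here.

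Autophagy encloses cytoplasm, damaged organelles or protein aggregates in a double membrane, the autophagosome, and delivers them to the lysosome. A kinase complex around ULK1 or ULK2 starts the process, a lipid kinase complex around Beclin 1 marks the growing membrane, and a ubiquitin-like conjugation system attaches ATG8 family proteins (the LC3 and GABARAP proteins) to it. Receptors tether cargo to these ATG8 proteins, and in endothelial cells autophagy is known for its part in clearing damaged mitochondria and oxidised material. The abundance of an mRNA does not measure the flow of cargo through the pathway.

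Expression was given as FPKM, fragments per kilobase of gene scaled to library size, and the libraries held 16240688 to 19509225 fragments. The deposited names do not say whether the replicates were separate cultures, so p-values measure the spread between these libraries, which may be technical. Between same-group libraries the chi-square of fragments per degree of freedom was 2.81 to 4.99 in Ctrl, 3.19 to 5.66 in Ep1 and 5.00 to 15.3 in Ep2. The groups shared 1 estimate of spread per gene, so Ep2 scatter also entered the p-values of Ep1 against Ctrl. The endothelial label was only partly borne out by its markers. Of 12 endothelial markers 2 reached an FPKM of 1 in 3 libraries (Flt1 at 6.66 to 11.7 and Eng at 1.02 to 1.46), Emcn and Erg were at 0 in all libraries, Pecam1 was at most 0.242 and Cldn5 at most 0.0761 FPKM. Of 5 epithelial markers 4 reached that level: Krt8 at 562 to 714, Krt18 at 231 to 332, Krt19 at 135 to 324 and Epcam at 0.607 to 2.03 FPKM. Cdh1, the E-cadherin gene, was at most 0.103 FPKM, so the high values of this list were those of keratins. The summed FPKM of the endothelial list was 9.45 to 9.67 in Ctrl, 9.43 to 10.8 in Ep1 and 13.0 to 14.1 in Ep2, and that of the epithelial list was 1029 to 1081, 937 to 1041 and 1155 to 1372. Flt1 made up most of the endothelial sum, so that sum mainly follows this gene and not the list. The part of these shifts in the results below was not tested. In bulk RNA of this kind, fewer cells of a type and less RNA per cell cannot be told apart.

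All 5 ATG8 family genes and all 6 receptor genes of the named set were higher in Ep2 than in Ctrl. The calls of the receptors Nbr1 and Tax1bp1 were lost in some settings. Of 14 other receptors tested, 8 were higher and 3 lower. In the ULK complex 3 of 5 genes passed the test, and in the Beclin 1 complex 2 of 6. Of the genes that read the lipid mark or transfer lipid 2 of 5 tested passed, and in conjugation 3 of 11. Bnip3, a mitophagy receptor of the outer mitochondrial membrane, had the highest fold, 2.5 between group means, followed by its paralogue Bnip3l at 1.65 and the ATG8 gene Gabarap at 1.61. Of the 40 genes, 38 passed the filter on low values and were tested with limma, each p-value being adjusted over all 11727 tested genes. The other two were Atg9b, at 0.573 to 1.02 FPKM, and the pseudogene Atg4a-ps, at 0.0255 to 0.145 FPKM from 1 to 6 fragments. In the Ep2 group 17 of 38 autophagy genes (44.7%) passed the test (adjusted p below 0.05) with a higher level and 4 (10.5%) with a lower one, against 23.9% higher and 29.3% lower among all tested genes. Their median log2 fold change was 0.08 against -0.03 over all tested genes. Differentially expressed genes (DEGs), which also needed an absolute log2 fold change above 0.6, were Bnip3, Bnip3l and Gabarap, 3 of 38 against 9.17% of all tested genes. The share of autophagy genes past the test in either direction, 55.3%, was near the 53.2% of all tested genes. Ep2 and Ctrl libraries did not overlap for 17 autophagy genes above and 5 below, where 27.0% and 32.7% of all tested genes were separated in these ways.

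**Figure D1:**
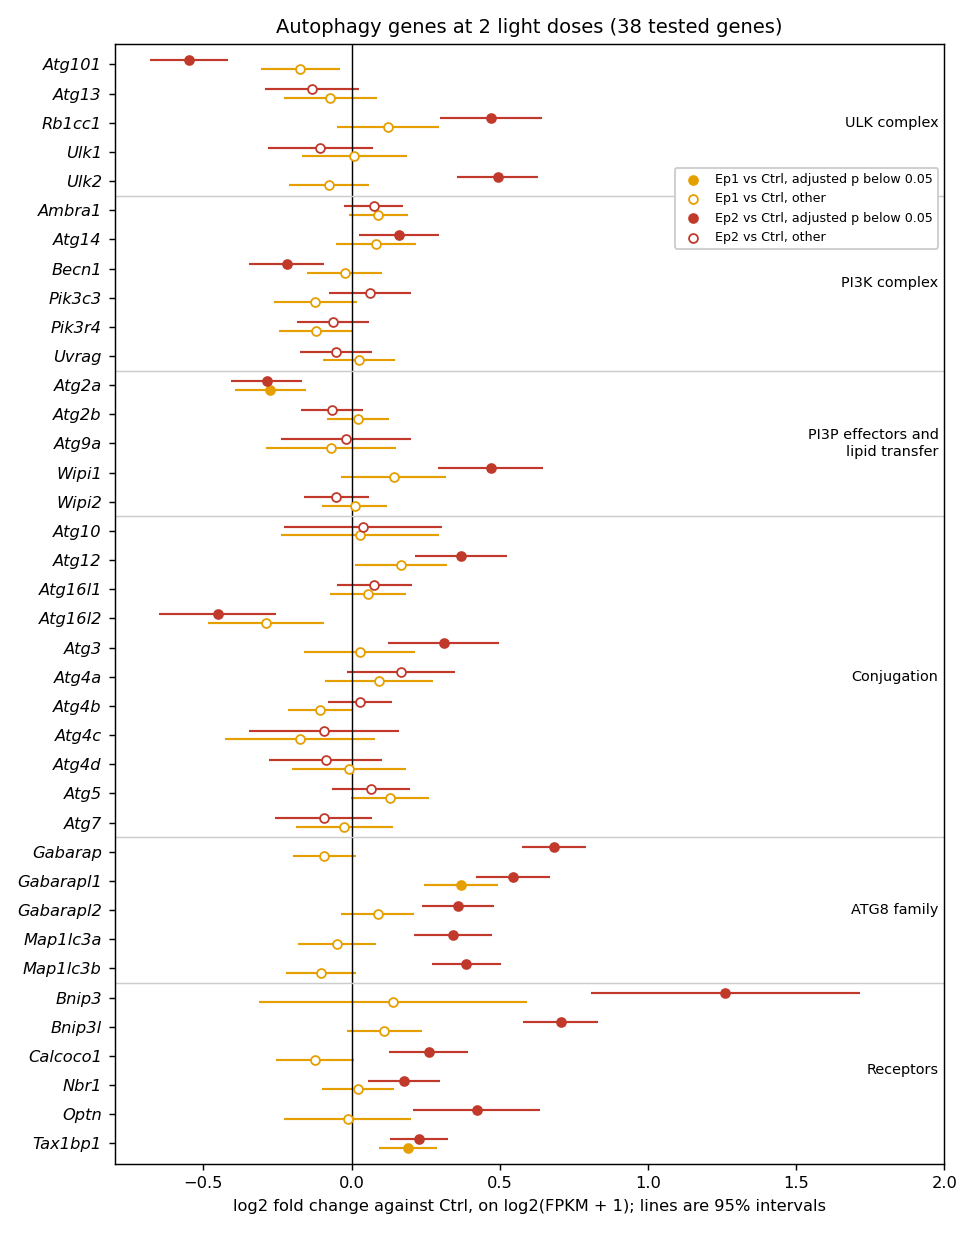
Log2 fold changes against Ctrl on the log2(FPKM + 1) scale for the 38 tested autophagy genes, grouped by role, with 95% intervals from limma (3 libraries per group). Filled points have an adjusted p below 0.05. In Ep2 (red) every ATG8 family gene and receptor lies to the right of 0, whereas in Ep1 (orange) 3 genes carry a filled point.

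In the Ep1 group 3 of 38 autophagy genes passed the test, against 11.3% of all tested genes. At 10 J/cm2, 2 of 38 autophagy genes were higher (Gabarapl1 and Tax1bp1) and 1 was lower (Atg2a), against 6.32% and 4.97% of all tested genes. No autophagy gene was a DEG in Ep1 by limma or by voom on recovered fragments, against 0.793% of all tested genes in limma. In limma 6 of 38 had an unadjusted p below 0.05, against 29.5% of all tested genes, and in voom 7 of 39, against 28.1%. Libraries without overlap between Ep1 and Ctrl were seen for 10 autophagy genes above and 8 below, where 20.8% and 20.5% of all tested genes were separated in these ways. The count higher in Ep1 became 1 without Ctrl replicate 1, Ctrl replicate 2, Ep1 replicate 1 or Ep1 replicate 3, and the count lower became 0 without Ctrl replicate 1, Ctrl replicate 2 or Ep1 replicate 3 and 2 without Ep2 replicate 3. Between the doses, 17 autophagy genes were higher in Ep2 than in Ep1 and 2 were lower (Atg101 and Becn1), against 18.8% and 25.2% of all tested genes. These counts fell to 11 higher and 1 lower without Ep1 replicate 2, to 1 lower without Ep1 replicate 3, and to 11 higher without a filter, and 7 of the 19 calls were lost in some setting. In 17 autophagy genes all Ep2 libraries lay above all Ep1 libraries and in 4 they lay below, which held for 24.1% and 30.3% of all tested genes. Gabarap and Bnip3 were DEGs in that comparison, where 5.9% of all tested genes were, and 4 genes were DEGs without Ep1 replicate 1. Both doses were compared with the same 3 Ctrl libraries, and all 3 comparisons came from 1 fit.

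Promoter sequences are shown for the 3 genes with the highest log2 fold changes that had a RefSeq entry (Bnip3, Gabarap and Gabarapl1) and for Atg101, which had the lowest log2 fold change on the log2(FPKM + 1) scale (by the ratio of group means Atg16l2 fell further, 0.534 against 0.675), so that the letters upstream of genes that moved in opposite directions can be read side by side. Each window runs from 250 bases before to 50 bases after the gene start in RefSeq on GRCm38.p6, 5′ to 3′ on the strand of the gene. Capitals mark ACGTG, the core of the hypoxia response element, read on either strand (CACGT on the strand shown). The windows are chr7:138909457-138909756 on the minus strand for Bnip3, chr11:69991120-69991419 on the plus strand for Gabarap, chr6:129532942-129533241 on the plus strand for Gabarapl1, and chr15:101284051-101284350 on the plus strand for Atg101.
Bnip3: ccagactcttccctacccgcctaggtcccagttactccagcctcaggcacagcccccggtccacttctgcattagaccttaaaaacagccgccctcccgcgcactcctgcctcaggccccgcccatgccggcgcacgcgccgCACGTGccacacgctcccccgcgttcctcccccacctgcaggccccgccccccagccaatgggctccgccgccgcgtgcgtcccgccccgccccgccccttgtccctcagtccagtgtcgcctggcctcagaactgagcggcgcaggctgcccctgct
Gabarap: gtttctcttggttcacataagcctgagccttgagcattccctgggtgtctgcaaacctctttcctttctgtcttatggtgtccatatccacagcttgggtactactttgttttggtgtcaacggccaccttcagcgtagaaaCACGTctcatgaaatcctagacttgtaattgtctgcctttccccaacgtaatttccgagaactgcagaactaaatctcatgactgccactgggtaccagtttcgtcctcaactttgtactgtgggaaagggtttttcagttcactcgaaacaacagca
Gabarapl1: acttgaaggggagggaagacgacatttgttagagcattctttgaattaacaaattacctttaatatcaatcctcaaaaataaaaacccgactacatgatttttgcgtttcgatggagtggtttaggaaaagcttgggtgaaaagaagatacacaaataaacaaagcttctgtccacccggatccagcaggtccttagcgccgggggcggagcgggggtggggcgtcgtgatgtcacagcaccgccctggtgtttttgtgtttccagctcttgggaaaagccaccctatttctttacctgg
Atg101: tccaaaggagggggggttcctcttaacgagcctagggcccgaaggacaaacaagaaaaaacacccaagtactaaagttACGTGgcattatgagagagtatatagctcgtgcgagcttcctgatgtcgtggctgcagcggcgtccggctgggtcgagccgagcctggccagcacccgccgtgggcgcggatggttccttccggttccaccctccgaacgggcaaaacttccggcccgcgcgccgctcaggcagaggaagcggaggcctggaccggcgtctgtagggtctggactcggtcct
The Bnip3 window held CACGTG, an E-box, starting 108 bases before the gene start. These letters contain ACGTG on both strands. One ACGTG stood 108 bases before the RefSeq start of Gabarap, and 1 stood 172 bases before that of Atg101, the gene that fell. The deposited span of Gabarap starts earlier, at 69991143, within this window and ahead of its ACGTG. By that span the Gabarap match lies inside the gene. The Gabarapl1 window held none. Over the 32 autophagy genes with a RefSeq window, 16 (50%) held ACGTG on either strand, against 21.8% of 27025 genes with a window. CACGTG, which is a subset of those matches, stood in 5 (15.6%; Atg14, Atg3, Atg5, Atg7 and Bnip3) against 8.09%. The FOXO motif TGTTTAC, read on either strand, was in 0 windows of autophagy genes against 4.05% of all genes. The 16 windows with ACGTG included those of genes higher in Ep2 (Bnip3, Gabarap), lower (Atg101) and not past the test (Atg5, Atg7, Uvrag). The share with ACGTG among tested genes alone was not counted. Matches are a description of letters in these windows.

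Genes of the ULK initiation complex moved in both directions in Ep2. Ulk2, one of the paired initiating kinases (chr11:61775649-61855073), was at 6.10, 6.57 and 6.19 FPKM in Ctrl, 6.22, 5.83 and 5.68 in Ep1, and 8.87, 8.87 and 10.0 in Ep2. Its Ep2 libraries all lay above the 6 others, which overlapped. The log2 fold change of Ulk2 in Ep2 was 0.49 (SE 0.06, limma adjusted p 0.000138). Ulk1, the other initiating kinase, did not pass the test, with a log2 fold change of -0.11 and a 95% interval from -0.28 to 0.07. Atg101, a small subunit that stabilises the complex through Atg13 (chr15:101284272-101290945), was at 34.3, 34.6 and 32.0 FPKM in Ctrl, 29.1, 30.0 and 29.9 in Ep1, and 23.3, 24.1 and 20.7 in Ep2. No libraries overlapped between any of the groups, and the order ran downward from Ctrl to Ep2. Its log2 fold change was -0.55 in Ep2 (SE 0.06, limma adjusted p 6.52e-05) and -0.17 in Ep1 (limma adjusted p 0.0867), which did not pass. The Ep1 value passed with only the groups compared (limma adjusted p 0.0284) and without Ep2 replicate 3 (limma adjusted p 0.0331). With correction for gene length and GC content the Ep2 value of Atg101 shrank to -0.36 and stayed past the threshold. Rb1cc1, which encodes the scaffold FIP200, was higher in Ep2 (3.27 to 3.88 FPKM against 2.14 to 2.38), with a log2 fold change of 0.47 that became 0.29 under the same correction. Atg13, the adaptor between kinase and scaffold, had a log2 fold change of -0.13 in Ep2 and did not pass.

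In the Beclin 1 lipid kinase complex 1 of 6 genes was higher and 1 lower in Ep2. Each was 16.7%, against 23.9% higher and 29.3% lower among all tested genes. Becn1, the Beclin 1 gene and platform of the complex (chr11:101285952-101302286), was at 9.05, 9.12 and 9.73 FPKM in Ctrl, 8.91, 9.12 and 9.35 in Ep1, and 8.27, 8.07 and 7.22 in Ep2. All Ep2 libraries lay below the Ctrl and Ep1 libraries, which overlapped each other. The fall in Ep2 was -0.22 on the log2 scale (SE 0.06, limma adjusted p 0.00886). Atg14, the subunit that directs the complex to autophagosome formation (chr14:47540893-47570649), had 2.77, 2.84 and 2.78 FPKM in Ctrl, 3.12, 3.10 and 2.84 in Ep1, and 3.01, 3.45 and 3.27 in Ep2. Its Ctrl libraries lay below all treated ones, and those of the 2 doses overlapped. The rise of Atg14 in Ep2 was small (log2 fold change 0.16, SE 0.06, limma adjusted p 0.0473), and it was lost in 12 of 16 alternative settings, the replicate block among them (adjusted p 0.0659). The kinase gene Pik3c3 (6.42 to 8.60 FPKM over all libraries), its partner Pik3r4 (3.68 to 4.23), the alternative subunit Uvrag (4.69 to 5.41) and the regulator Ambra1 (11.6 to 13.2) did not pass in either dose, with log2 fold changes in Ep2 between -0.06 and 0.07. Pik3c3 was higher in Ep2 than in Ep1 (log2 fold change 0.18, limma adjusted p 0.0366), a call that the replicate block ended (adjusted p 0.0614).

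Among the genes that read the lipid mark and feed lipid into the membrane, 1 of 5 tested was higher and 1 lower in Ep2. Each was 20.0%, against 23.9% higher and 29.3% lower among all tested genes. Wipi1, which binds phosphatidylinositol phosphate on the forming membrane (chr11:109573331-109611967), was at 6.22, 6.16 and 6.26 FPKM in Ctrl, 7.43, 6.46 and 7.02 in Ep1, and 10.2, 8.75 and 8.07 in Ep2. The 3 groups did not overlap and rose in order of dose. In Ep2 the log2 fold change of Wipi1 was 0.47 (SE 0.08, limma adjusted p 0.000884), while the 0.14 of Ep1 did not pass (limma adjusted p 0.26). Its paralogue Wipi2, which recruits the conjugation machinery, did not pass, at 8.92 to 10.1 FPKM over all libraries. Atg2a, a lipid transfer protein gene (chr19:6241668-6262335), was at 7.91, 8.25 and 7.79 FPKM in Ctrl, 6.72, 6.38 and 6.18 in Ep1, and 6.23, 6.11 and 6.77 in Ep2. Both treated groups lay below Ctrl and overlapped each other. Atg2a had a log2 fold change of -0.28 in Ep1 (limma adjusted p 0.0161) and -0.29 in Ep2 (limma adjusted p 0.00157), and the difference between doses was -0.01 with a 95% interval from -0.13 to 0.11. The Ep1 call of Atg2a was lost with length and GC correction (adjusted p 0.0506) and without Ctrl replicate 1 (0.0544), Ctrl replicate 2 (0.0768) or Ep1 replicate 3 (0.0714), and its Ep2 value became -0.18 with the correction. Atg2b (4.41 to 4.98 FPKM) and Atg9a, a lipid scramblase gene (3.78 to 5.02), did not pass in either dose.

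**Figure D2:**
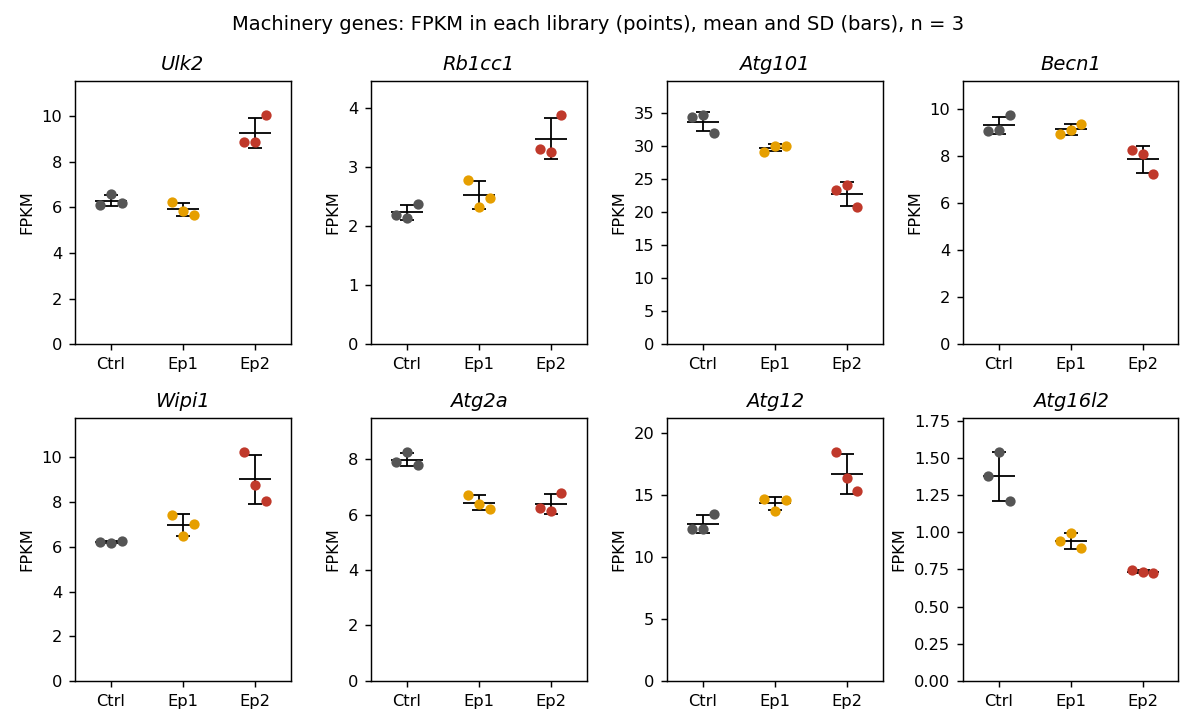
FPKM of genes of the initiation, lipid kinase, lipid transfer and conjugation groups in each library (points), with the mean and SD of 3 libraries per group (bars) and a y axis from 0. Ulk2, Wipi1 and Atg12 are highest in Ep2, Atg101, Becn1 and Atg16l2 are lowest there, and Atg2a is lower than Ctrl at both doses.

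In the conjugation system 2 of 11 genes were higher and 1 was lower in Ep2. These shares, 18.2% and 9.09%, stood against 23.9% and 29.3% of all tested genes. Atg12, the ubiquitin-like protein joined to Atg5, was at 12.2, 12.3 and 13.5 FPKM in Ctrl, 14.7, 13.7 and 14.6 in Ep1, and 18.5, 16.3 and 15.3 in Ep2. The groups did not overlap. Its log2 fold change was 0.37 in Ep2 (SE 0.07, limma adjusted p 0.00159) and 0.17 in Ep1 (limma adjusted p 0.146). Atg16l2, a relative of the scaffold Atg16l1 (chr7:101263034-101302251), was weakly expressed, at 1.38, 1.54 and 1.21 FPKM in Ctrl, 0.940, 0.993 and 0.890 in Ep1, and 0.743, 0.732 and 0.725 in Ep2. Here too the groups did not overlap, in falling order. The log2 fold change of Atg16l2 in Ep2 was -0.45 (SE 0.09, limma adjusted p 0.00196) on the log2(FPKM + 1) scale, which understates changes of low genes, and -0.89 with voom on recovered fragments. In Ep1 it was -0.29 and did not pass (limma adjusted p 0.062). With voom the Ep1 value was -0.54 and passed (voom adjusted p 0.00625). Atg3, the enzyme that passes ATG8 proteins to lipid, was higher in Ep2 at 11.3 to 12.5 FPKM against 8.64 to 10.6 in Ctrl (log2 fold change 0.31, limma adjusted p 0.011). The remaining 8 genes did not pass in Ep1 or Ep2. They were the activating enzyme gene Atg7 (2.51 to 3.18 FPKM), the second transfer enzyme Atg10 (1.13 to 1.69), the conjugate partners Atg5 (11.8 to 14.7) and Atg16l1 (4.14 to 4.92), and the processing proteases Atg4a (2.53 to 3.33), Atg4b (4.61 to 5.45), Atg4c (2.08 to 3.18) and Atg4d (1.82 to 2.54). Their log2 fold changes in Ep2 lay between -0.09 and 0.17. Reads of Atg2b, Atg4b, Atg4d, Atg9a, Map1lc3b and Pik3r4 may include those of an expressed gene on the opposite strand, since whether strand was used in counting is not stated.

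The ATG8 family held the 3 highest Ctrl levels among the autophagy genes, and 5 of 5 members rose in Ep2 (median 0.39 on the log2 scale). Among all tested genes 23.9% were higher. Gabarap, an ATG8 protein gene that acts late in autophagosome maturation (chr11:69991143-69994951), was at 100.1, 99.1 and 103.8 FPKM in Ctrl, 101.3, 93.0 and 90.1 in Ep1, and 163, 159 and 166 in Ep2. Ctrl and Ep1 overlapped, and every Ep2 library lay above both. Its log2 fold change was 0.68 in Ep2 (SE 0.05, limma adjusted p 7.97e-06) and -0.09 in Ep1 (limma adjusted p 0.235). Gabarapl1, its close relative (chr6:129533160-129542346), was at 40.9, 42.6 and 44.0 FPKM in Ctrl, 59.5, 52.4 and 53.8 in Ep1, and 61.2, 60.8 and 65.5 in Ep2. It differed from Gabarap in that Ep1 already lay wholly above Ctrl. The log2 fold change of Gabarapl1 was 0.37 in Ep1 (SE 0.06, limma adjusted p 0.00873) and 0.54 in Ep2 (SE 0.06, limma adjusted p 5.18e-05). Of the 3 autophagy genes past the test in Ep1, it was the gene whose call held in all 17 alternative settings. Gabarapl2 rose from 21.9 ± 0.874 FPKM (SD, n = 3) in Ctrl to 28.4 ± 1.97 in Ep2, Map1lc3a from 40.9 ± 1.01 to 52.2 ± 4.0, and Map1lc3b, the usual LC3 marker of autophagosomes, from 15.2 ± 0.248 to 20.2 ± 1.10. These 3 had log2 fold changes between 0.34 and 0.39 in Ep2 and did not pass in Ep1.

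**Figure D3:**
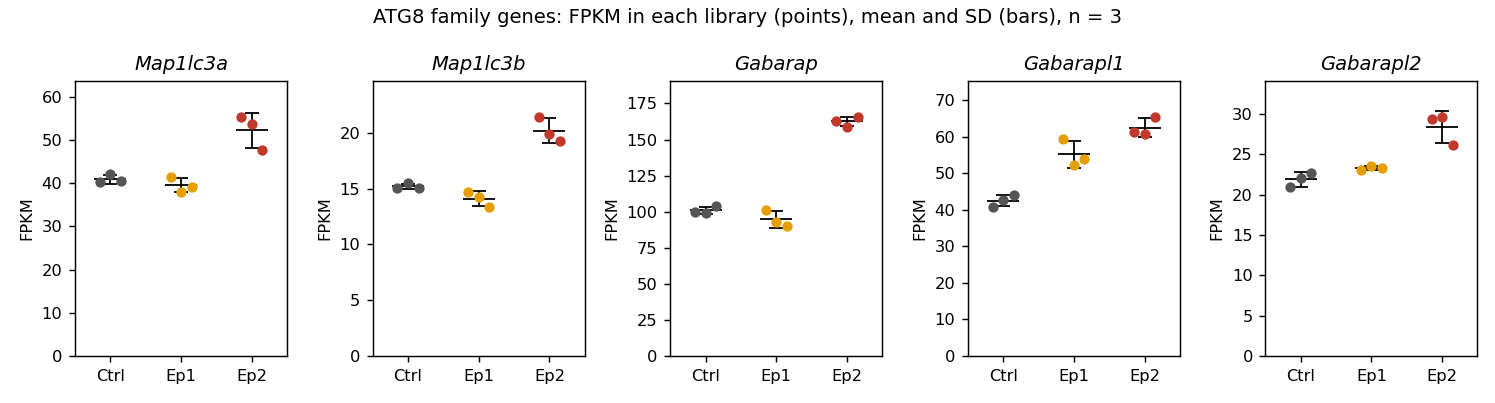
FPKM of the 5 ATG8 family genes in each library (points), with the mean and SD of 3 libraries per group (bars) and a y axis from 0. All Ep2 libraries lie above all Ctrl libraries for each gene, and Gabarapl1 is also above Ctrl in Ep1.

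Summed over the 5 genes, ATG8 family FPKM was 217.3, 221.3 and 226.0 in Ctrl, 239.8, 221.4 and 219.6 in Ep1, and 330.3, 322.9 and 324.3 in Ep2. Ctrl and Ep1 sums overlapped, and the Ep2 sums stood above both. Gabarap made up 44.8% to 46.1% of the sum in Ctrl, 41.0% to 42.3% in Ep1 and 49.2% to 51.1% in Ep2, so its share was lowest in Ep1 and highest in Ep2 without overlap. FPKM is a level per listed gene length, which was 7517 bases for Map1lc3b and 1844 for Gabarap. Whether these are lengths of the expressed mRNA is not stated. The shares are therefore of summed FPKM, and not of transcripts or reads.

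The 6 receptor genes of the named set all rose in Ep2 (median 0.34 on the log2 scale), against 23.9% higher among all tested genes. Bnip3 (chr7:138890836-138909519) was at 22.4, 24.6 and 27.1 FPKM in Ctrl, 34.6, 23.7 and 24.4 in Ep1, and 79.5, 52.4 and 52.7 in Ep2. All Ep2 libraries lay above the others, Ep2 replicate 1 was highest, and within Ep1 replicate 1 was the one library above Ctrl. Bnip3 rose by 1.26 on the log2 scale in Ep2 (SE 0.20, 95% interval 0.81 to 1.71, limma adjusted p 0.001), and its Ep1 value was 0.14 (limma adjusted p 0.677). Bnip3l, also called Nix, the second mitochondrial receptor (chr14:66985239-67008877), was at 35.7, 37.3 and 38.4 FPKM in Ctrl, 42.9, 38.4 and 39.3 in Ep1, and 64.9, 59.9 and 58.8 in Ep2. Its Ep2 libraries were closer together than those of Bnip3 and again all above the rest. In Ep2 the log2 fold change of Bnip3l was 0.71 (SE 0.06, limma adjusted p 1.38e-05). Its values are uncertain to the extent that reads could be shared with the pseudogene Bnip3l-ps, which was listed at 9.21 to 16.5 FPKM and was also higher in Ep2 (log2 fold change 0.52, limma adjusted p 0.000672).

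The remaining receptors had smaller log2 fold changes than both mitochondrial ones. Tax1bp1 (chr6:52713729-52766780) was at 16.0, 16.2 and 16.5 FPKM in Ctrl, 18.7, 18.2 and 19.2 in Ep1, and 20.1, 18.6 and 18.9 in Ep2. Both doses lay above Ctrl and overlapped each other. The log2 fold change of Tax1bp1 was 0.19 in Ep1 (SE 0.04, limma adjusted p 0.0272) and 0.23 in Ep2 (SE 0.04, limma adjusted p 0.00188), and the difference between doses was 0.04 with a 95% interval from -0.06 to 0.13. With correction for length and GC content Tax1bp1 passed in neither dose (0.10 and adjusted p 0.26 in Ep1, 0.10 and adjusted p 0.113 in Ep2), and its Ep1 call was also lost without a filter (adjusted p 0.0696) and without Ctrl replicate 1 (0.0927), Ctrl replicate 2 (0.0997), Ep1 replicate 1 (0.08) or Ep1 replicate 3 (0.105). Optn, the optineurin gene, went from 4.88 ± 0.303 FPKM (SD, n = 3) in Ctrl to 6.89 ± 0.597 in Ep2, and Nbr1 from 22.6 ± 0.0878 to 25.7 ± 2.13. Nbr1 rested in part on Ep2 replicate 1, at 28.1 FPKM, without which its log2 fold change fell from 0.18 to 0.11 and still passed, and its call was lost without Ctrl replicate 1 (adjusted p 0.0513) or Ctrl replicate 2 (adjusted p 0.0585), without a filter (0.0531) and in a fit of the 2 groups alone (0.0512). Calcoco1, a receptor for the endoplasmic reticulum, went from 5.72 ± 0.153 to 7.05 ± 0.328 FPKM. The 3 genes had log2 fold changes of 0.42, 0.18 and 0.26 in Ep2.

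**Figure D4:**
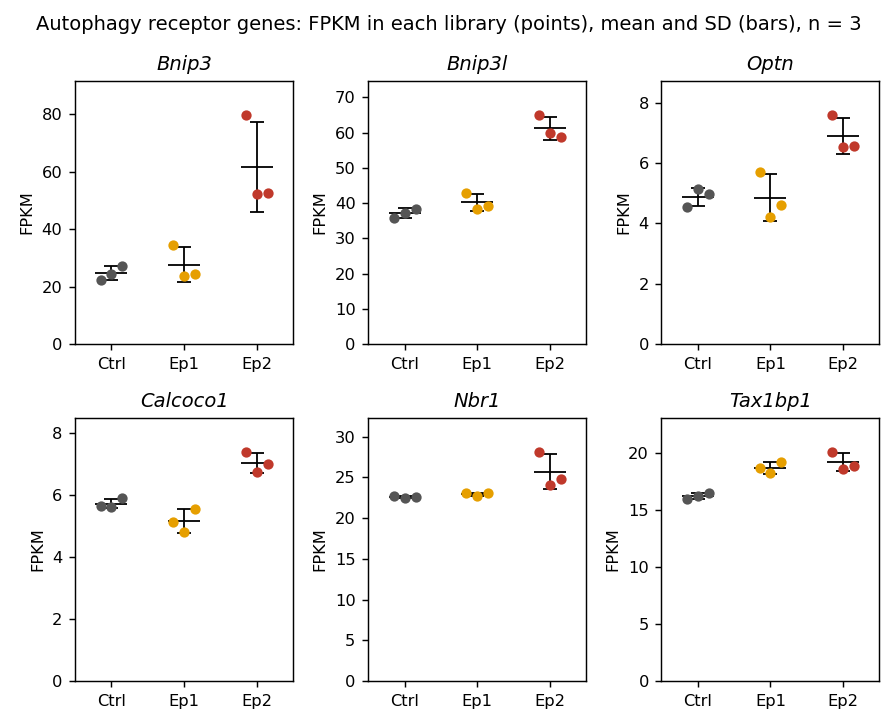
FPKM of the 6 autophagy receptor genes in each library (points), with the mean and SD of 3 libraries per group (bars) and a y axis from 0. Bnip3 and Bnip3l show the largest rises in Ep2, with Ep2 replicate 1 of Bnip3 at 79.5 FPKM, and Tax1bp1 is above Ctrl at both doses.

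The summed FPKM of the 6 receptors was 106.9 to 115.4 in Ctrl, 112.1 to 130.1 in Ep1 and 168.2 to 207.6 in Ep2. Bnip3 accounted for 20.9% to 23.5% of the sum in Ctrl, 21% to 26.6% in Ep1 and 31.1% to 38.3% in Ep2. Without overlap, both quantities were highest in Ep2. The sum leaves out Sqstm1, a receptor gene of the further lists, named here after its values were seen. Sqstm1 alone was above these sums, at 417.8 ± 6.72 FPKM (SD, n = 3) in Ctrl, 478.3 ± 38.8 in Ep1 and 562.7 ± 26.9 in Ep2. Its log2 fold change was 0.43 in Ep2 (limma adjusted p 0.000282) and 0.19 in Ep1 (limma adjusted p 0.0653).

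Level and sequence composition were described for the autophagy genes by their call in Ep2, without a test. In Ctrl the tested genes ranged from Atg10 at 1.37 FPKM, above 9.35% of all tested genes, to Gabarap at 101 FPKM, above 95.9%. The 17 genes higher in Ep2 had a median Ctrl level of 15.2 FPKM, against 8.64 for the 4 lower and 4.77 for the 17 that did not pass. Their median GC content was 47.9%, against 54.4% for those that were lower and 49.7% for the rest. Among all tested genes these medians were 47.0% for genes higher, 51.6% for genes lower and 49.2% for the others, the same order as in the autophagy genes. Of the 21 autophagy genes past the test in Ep2, 18 stayed past it in all alternative settings in which they could be fitted, the length and GC correction included, and the exceptions were Atg14, Nbr1 and Tax1bp1.

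Genes that control or complete autophagy were taken from 5 further lists, of which 65 of 70 genes were tested. In Ep2 27 were higher and 12 lower (41.5% and 18.5%), against 23.9% and 29.3% of all tested genes, and their median was 0.11 on the log2 scale. In Ep1 9 were higher and 4 lower (13.8% and 6.15%, against 6.32% and 4.97% of all tested genes). These 13 calls fell to 3 without Ctrl replicate 2, Ep1 replicate 1 or Ep1 replicate 3, to 4 without Ctrl replicate 1 and to 8 without Ep1 replicate 2, and rose to 20 without Ep2 replicate 1. Among nutrient signalling genes 6 of 17 were higher and 5 lower in Ep2 (35.3% and 29.4%), the lower share being near that of all tested genes. Fnip1, a folliculin partner in lysosomal nutrient sensing, was at 7.34 ± 0.411 FPKM (SD, n = 3) in Ctrl, 10.9 ± 0.420 in Ep1 and 15.9 ± 1.21 in Ep2, with log2 fold changes of 0.52 in Ep1 (limma adjusted p 0.00538) and 1.01 in Ep2 (limma adjusted p 5.2e-06). Rragc, a Rag GTPase gene, rose by 0.60 in Ep2, while Sesn1 and Tsc2, both restraints on mTORC1, had log2 fold changes of -0.41 and -0.32.

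The MiT/TFE factors, which drive lysosomal and autophagy genes, did not move in 1 direction, with Mitf and Tfe3 higher and Tfeb lower in Ep2. Mitf was at 2.15 ± 0.204, 3.03 ± 0.145 and 4.56 ± 0.133 FPKM in Ctrl, Ep1 and Ep2 (log2 fold change 0.82 in Ep2, limma adjusted p 1.24e-05). Tfeb was at 4.79 ± 0.373, 3.83 ± 0.119 and 2.86 ± 0.137 FPKM (log2 fold change -0.58 in Ep2, limma adjusted p 6.37e-05). Tfe3, named after its values were seen, was the most abundant of the 3 in Ctrl and went from 8.16 ± 0.138 FPKM there to 10.5 ± 0.235 in Ep2 (log2 fold change 0.33, limma adjusted p 0.000484). Atf4, the stress response factor, rose by 0.45 in Ep2 on the log2 scale. In all, 5 of 8 factors were higher and 1 lower (62.5% and 12.5%, against 23.9% and 29.3% of all tested genes).

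Of other cargo receptors, 8 of 14 were higher and 3 lower in Ep2 (57.1% and 21.4%, against 23.9% and 29.3% of all tested genes). Sec62, a receptor of the endoplasmic reticulum, rose by 0.70 on the log2 scale and Tollip, a ubiquitin-binding adaptor, by 0.47, while the mitochondrial genes Phb2 and Fkbp8 had log2 fold changes of -0.64 and -0.71. Phb2 went from 76.5 ± 2.88 FPKM in Ctrl to 48.7 ± 2.51 in Ep2 and Fkbp8 from 51.1 ± 2.96 to 30.8 ± 1.64. These fell while the mitochondrial receptors Bnip3 and Bnip3l rose. Among genes for membrane supply and cofactors, 6 of 13 were higher and 2 lower (46.2% and 15.4%). Tbk1, a kinase of the receptors, was at 0.44 and Sh3glb1 at 0.38, against Trp53inp1 at -0.39 and Ei24 at -0.19 (log2 fold changes). Of lysosome fusion genes 2 of 13 were higher (15.4%) and 1 was lower (7.69%), both below the shares of all tested genes. The higher genes were Rab7 at 0.48 and Tecpr1 at 0.39, and the lower was Vps11 at -0.18.

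**Figure D5:**
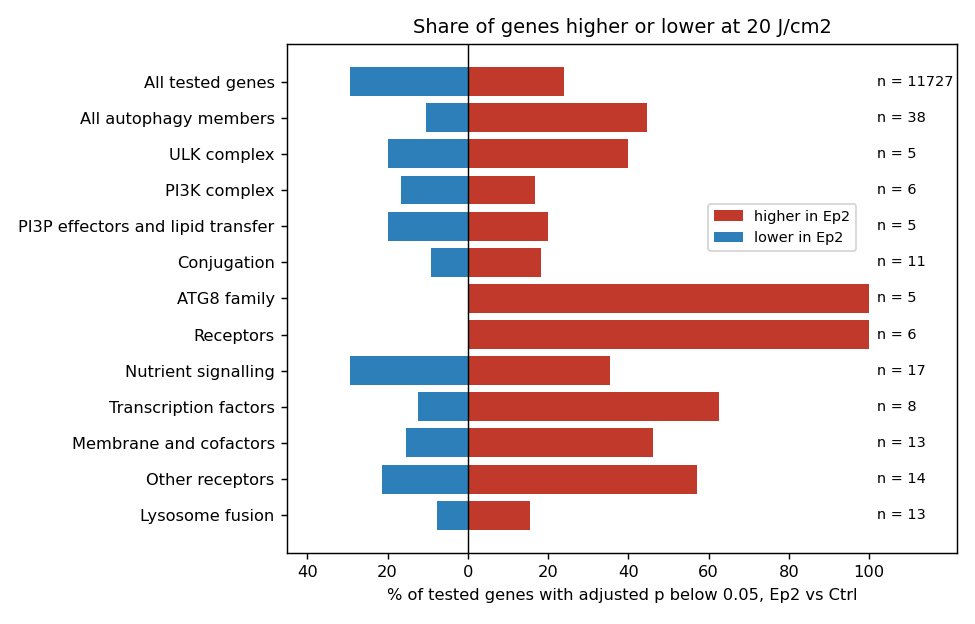
Share of tested genes higher (red, to the right) or lower (blue, to the left) in Ep2 than in Ctrl at an adjusted p below 0.05, in percent, for all 11727 tested genes, the 38 autophagy genes, their 6 role groups and the 5 further lists, with n the number tested. The ATG8 family and the receptors of the role groups reach 100.0% higher, where all tested genes stand at 23.9% higher and 29.3% lower. The other receptors of the further lists stand at 57.1% higher and 21.4% lower.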

How the data were processed

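RNA was sequenced from 9 libraries, grouped by the library names. The authors deposited 1 FPKM value per gene and library, already scaled for gene length and library size, and the tables of single libraries equal the joint table. The submitters' processing notes list Bowtie 0.12.2 and mm8, and the methods name GRCm39, while the coordinates overlap GRCm38 positions for 99.9% of 36418 genes compared and GRCm39 positions for 12.4%. FPKM times gene length gave whole fragments within 0.05 for 100.0% of values.

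Genes reaching an FPKM of 1 in 3 or more libraries entered the test on log2(FPKM + 1) with limma 3.58.1 in R 4.3.3 (1 fit of all 9 libraries, trend and robust eBayes, Benjamini-Hochberg adjustment over 11727 genes). Fold changes understate those of low genes. DEG thresholds (adjusted p below 0.05, absolute log2 fold change above 0.6) follow the study, which does not name its test. They gave 93 DEGs in Ep1 and 1075 in Ep2 here, fewer than the study reports for each dose. DEG counts and shares given here are therefore not comparable with those of the study. The script was run on simulated data with the same spread in every group and genes changed in Ep2 only. Unequal spread between groups was not covered by it.

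The members and lists were chosen with earlier results of these data known. Values per library are given for DEGs and for the 2 genes of each role with the smallest adjusted p against Ctrl in Ep2, and in Ep1 where that p passed. Of each further list, the 2 genes with the smallest p in each direction in Ep2 are named, the only gene where there was 1. Alternatives were a pseudocount of 0.1, no filter, a filter of FPKM 5 in 3 libraries, median centring, correction for length and GC content (splines with 4 degrees of freedom, 11600 genes), a replicate block, only the groups compared, voom on recovered fragments (14112 genes with at least 10 fragments in 3 libraries) and omission of each library. Promoters came from RefSeq (GRCm38.p6), with 32 of 40 genes matched. Tables were handled in Python 3.11.15 with pandas 2.3.3 and drawn with matplotlib 3.10.9.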

Additional observations from a re-analysis of the deposited data

Results flagged for a closer look

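Among the 38 tested autophagy genes, 2 had the doses on opposite sides of Ctrl in every library. The flag also required Ep2 against Ep1 to pass the test, so the p-values between the doses are not independent evidence. For this pattern the share of all tested genes was not counted. Neither these genes nor those of the next paragraph can therefore be set against it. Map1lc3b was at 15.1, 15.5 and 15.1 FPKM in Ctrl, 14.7, 14.3 and 13.3 in Ep1, and 21.4, 19.9 and 19.3 in Ep2, with a log2 difference between Ep2 and Ep1 of 0.49 (limma adjusted p 9.96e-05). Calcoco1 was at 5.65, 5.63 and 5.90 FPKM in Ctrl, 5.15, 4.81 and 5.56 in Ep1, and 7.40, 6.74 and 7.02 in Ep2, with a log2 difference of 0.38 (limma adjusted p 0.000722). The fall from Ctrl to Ep1 did not pass the test in either gene (limma adjusted p 0.22 for Map1lc3b and 0.19 for Calcoco1).

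The same pattern was seen in 3 genes of the further lists, named here after their values were seen. Zfyve1, which encodes the omegasome protein DFCP1, was lower in Ep1 (-0.28, limma adjusted p 0.021) and higher in Ep2 (0.23, limma adjusted p 0.00894), with a log2 difference between the doses of 0.51 (limma adjusted p 0.000158). Its Ep1 call was lost in 6 of 16 alternative settings (no filter, and without Ctrl replicate 1, 2 or 3 or Ep1 replicate 1 or 3), with an adjusted p of up to 0.0839, and its call in Ep2 was kept in all 16. Plekhm1, an adaptor for fusion with the lysosome, was lower in Ep1 (-0.37, limma adjusted p 0.00681), a call kept in all 17 alternative settings, while its Ep2 value of 0.10 did not pass (limma adjusted p 0.108), and the difference between the doses was 0.47 (limma adjusted p 9.68e-05). Bcl2l13, a mitochondrial receptor gene, had the reverse order, with 0.05 in Ep1 (limma adjusted p 0.484), -0.13 in Ep2 (limma adjusted p 0.024, lost in 5 of 17 settings, among them without Ctrl replicate 1, Ctrl replicate 2 or Ep2 replicate 3) and a difference of -0.18 (limma adjusted p 0.00707).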

How the results depend on the processing

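No autophagy gene past the test in a comparison changed sign in any alternative setting. In Ep1 against Ctrl, 2 were higher and 1 was lower: 1 was higher without a filter, 0 were lower with length and GC correction, and 2 were lower in a fit of only the groups compared and with voom. The added gene was Atg101 in the fit of only the groups compared and Atg16l2 with voom. Leaving out 1 library in turn gave 1 to 2 higher and 0 to 2 lower. The 13 further pathway genes past the test in Ep1 became 4 without a filter, 8 with length and GC correction and 20 with only the groups compared, and 3 to 20 with 1 library left out. In Ep2 against Ctrl the 3 DEGs became 5 with a pseudocount of 0.1 and 5 with voom. In Ep2 against Ep1 the 17 genes higher became 11 without a filter and 11 to 16 with 1 library left out, the 2 lower became 1 with median centring and 1 to 2 with 1 library left out, and the 2 DEGs became 4 with a pseudocount of 0.1, 4 with median centring and 4 with voom, and 2 to 4 with 1 library left out. Among autophagy genes not past the test, the sign turned in at least 1 setting for 15 of 35 in Ep1, 4 of 17 in Ep2 and 7 of 19 between the doses. Of the genes given per library these were Becn1 in Ep1 (-0.041 to 0.0061 with 1 library left out), Bnip3 in Ep1 (-0.030 to 0.23, the lower end without Ep1 replicate 1) and Atg2a between the doses (0.045 with median centring, 0.030 with length and GC correction, and -0.049 to 0.017 with 1 library left out). The causes were not tested.

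The replicate numbers did not pair the libraries: deviations from the group means of same-numbered libraries correlated at -0.06 to 0.07, and 2 of 9 libraries were closest to their own number. With the replicate block, 2 genes were higher and 1 lower in Ep1, 16 higher and 4 lower in Ep2, and 14 higher between the doses, and the calls it ended were those of Atg14 in Ep2 and of Pik3c3, Atg12 and Atg4b between the doses. FPKM carry no spike-in, so a change in total RNA per cell would not be seen, and 3 libraries per group limit the precision of every value.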
